A study of Mus musculus with 3 samples.

Results

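The mitochondrial ribosomal protein genes were described in RNA that was bound to tagged cytosolic ribosomes in the deep cerebellar nuclei of mice. They were taken as the genes whose symbol is Mrpl or Mrps followed by a number and at most 1 letter, which gave 77 of the 32531 genes in the count tables. The samples were 3 immunopurified libraries of 1 group, from adult C57BL/6J mice of the Htr6-TRAP NIDA113 line, whose transgene is an Htr6-EGFP/Rpl10a fusion of the ribosomal protein L10a with EGFP. Translating ribosome affinity purification (TRAP) pulls ribosomes with the tagged protein down with anti-EGFP antibodies, and their RNA was sequenced. All 3 libraries carry the same transgene and had no treatment in the labels. The labels name no driver of the transgene other than Htr6, a serotonin receptor gene. Neither untagged nor unpurified RNA was analysed here, so the values show how abundant an mRNA was after purification and not whether purification raised it. Separate animals or pools are not told apart in the labels, and part of the spread between libraries may be technical.

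The mitochondrial ribosome sits in the matrix and makes the few respiratory chain proteins that mitochondrial DNA encodes. All of its proteins are encoded in the nucleus, made on cytosolic ribosomes and imported, so their mRNAs can be caught by a tagged cytosolic ribosome. The large subunit joins amino acids, and the small subunit binds and decodes the mRNA. Some of the proteins descend from bacterial ribosomal proteins, and others were gained in the mitochondrial line. Neurons depend on respiration for much of their ATP. By role, 50 of the 77 genes encode large-subunit proteins, including Mrps30 and Mrps18a in spite of their symbols, and 26 encode small-subunit proteins. Mrps36 is counted with the 77 but encodes a component of the oxoglutarate dehydrogenase complex. Of the 76 subunit genes, 46 have a bacterial counterpart and 30 do not.

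The libraries held 7695397, 8842058 and 7622010 gene counts in replicates 1, 2 and 3, and 3 counts correspond to 0.397, 0.340 and 0.385 CPM, which is the level that a count of 0 still allows for counting error alone. CPM are counts scaled to the TMM-adjusted library size, and RPKM are CPM per kilobase of the longest coding transcript. All 6 neuronal markers had counts in every library, with a summed level of 24154, 22208 and 16084 CPM. The 3 markers of glutamatergic nuclear neurons summed to 654, 450 and 405 CPM, and the 4 markers of inhibitory neurons to 706, 397 and 890 CPM. Markers of granule cells (2314 to 2412 CPM), Purkinje cells (2402 to 3476 CPM), oligodendrocytes (1394 to 1808 CPM) and astrocytes (272 to 348 CPM) were also counted in every library, 3 of 3 in each list. The Purkinje sum was mostly Car8 (918 to 1409 CPM) and Rgs8 (1418 to 2312 CPM), with Pcp2 at 13.9 to 39.1 CPM. The astrocyte sum was mostly Aqp4 (243 to 313 CPM), with Gfap at 25.9 to 39.2 CPM and Aldh1l1 at 2.91 to 7.57 CPM. The microglial markers C1qa and Aif1 and the vessel marker Cldn5 were at 0 in all libraries, while the 3 microglial markers summed to 13.1 to 30.9 CPM and the 3 vessel markers to 27.0 to 89.8 CPM. The purified RNA was therefore not that of the deep nuclei neurons alone by these markers. Whether the mix of cells has a part in the levels below was not tested, and fewer cells of a type cannot be told apart from less RNA per cell.

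Most of the mitochondrial ribosomal protein genes were detected. At least 1 count fell on 75 of the 77 genes (97.4%), and 65 of them (84.4%) had a count in every library, beside 34.2% of all genes and 50.7% of protein-coding genes. Replicates 1, 2 and 3 each detected 69, 73 and 71 of the 77. At 3 counts or more in every library, 59 genes remained. A mean of at least 10 CPM was reached by 38 genes (49.4%), beside 63 of 81 cytosolic ribosomal protein genes (77.8%), 25.1% of all genes and 38.3% of protein-coding genes.

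The purified RNA held less of these mRNAs than of the mRNAs for the cytosolic ribosome. Summed over the 77 genes, the level was 1170, 1326 and 848 CPM (1115 ± 243 CPM, SD, n = 3), and over the 81 cytosolic genes it was 2627, 2343 and 1945 CPM (2305 ± 343 CPM). The median mitochondrial gene was at 2.88, 5.90 and 4.0 RPKM in replicates 1, 2 and 3, and the median cytosolic gene at 20.5, 16.8 and 15.4 RPKM. Among the 14036 genes with at least 10 counts summed, the median was 4.96, 4.83 and 4.98 RPKM. The mitochondrial median was thus below the cytosolic one in 3 of 3 libraries, and on either side of the median expressed gene depending on the library.

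On the log2(RPKM + 1) scale, the median was 1.96, 2.79 and 2.32 for the mitochondrial genes, and the difference from the cytosolic median was -2.47, -1.37 and -1.71 (-1.85 ± 0.56, SD, n = 3). On the log2(CPM + 1) scale, where length is not taken into account, the difference was -1.92, -0.58 and -1.15 (-1.22 ± 0.67). It exceeded its spread between libraries on both scales. A sign-flip permutation test of 3 libraries cannot give a p-value below 0.25, so none is given. Ribosomal protein genes have many processed pseudogenes, and reads that align to several places were not counted. For 72 of the 81 cytosolic genes and 26 of the 77 mitochondrial genes, at least 20% of the transcript was made of stretches of 50 bases also found in another annotated gene. Among the 51 mitochondrial and 9 cytosolic genes below 20%, the difference in log2(RPKM + 1) was -0.95, -0.09 and -0.65 (-0.57 ± 0.44, and -0.37 without replicate 1). In log2(CPM + 1) it was -1.81, -0.41 and 0.10 (-0.71 ± 0.99, and -0.16 without replicate 1). Of these 9 cytosolic genes, 2 (Rpl3l and Rpl39l) were at 0 in all libraries, which lowers the median of so small a set and narrows the difference.

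**Figure D1:**
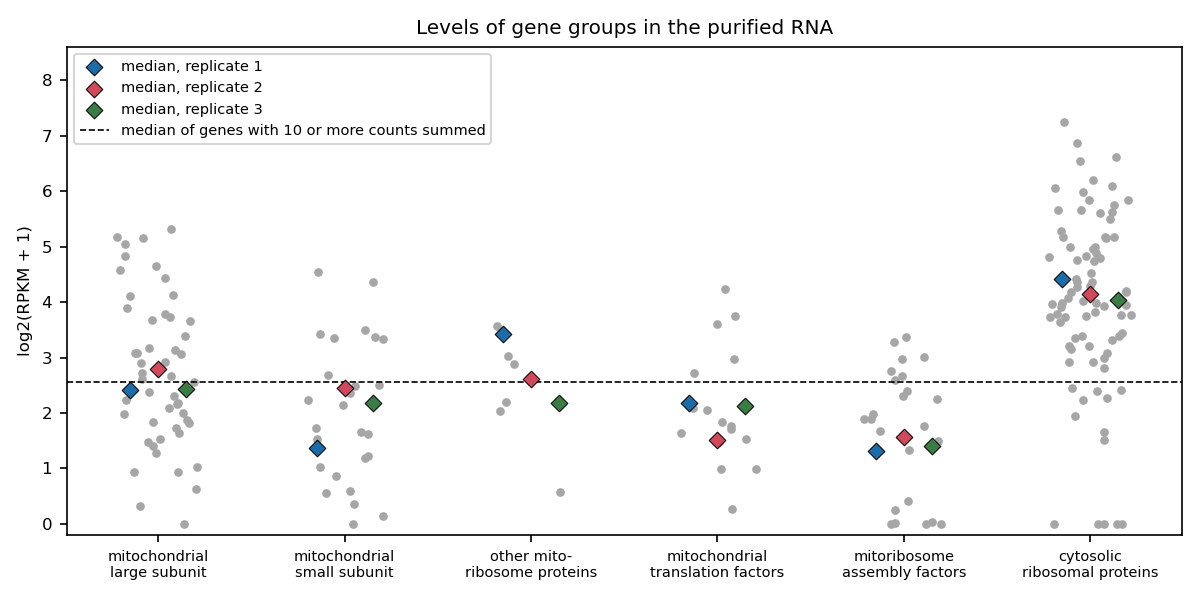
Levels of 6 gene groups on the log2(RPKM + 1) scale; each grey point is the mean of the 3 log2 values of a gene, diamonds are the group's median in each library, and the dashed line is the median of genes with at least 10 counts summed. The cytosolic medians lie above the dashed line in all 3 libraries, while the small-subunit medians lie below it.

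Among the subunit genes with Mrpl and Mrps symbols, those of the large subunit had the higher median in each library. The 6 further mitoribosome proteins with other symbols, among them the small-subunit protein Dap3, are in neither group. The median large-subunit gene was at 2.98, 3.89 and 3.23 on the log2(CPM + 1) scale in replicates 1, 2 and 3, and the median small-subunit gene at 1.66, 3.04 and 2.57. The difference was 1.32, 0.85 and 0.67 (0.94 ± 0.33, SD, n = 3). Per length it was smaller, at 1.05, 0.34 and 0.25 on the log2(RPKM + 1) scale (0.55 ± 0.44), and 0.29 without replicate 1. A count in every library was seen for 46 of 50 large-subunit genes and 18 of 26 small-subunit genes, so that 7 of the 10 genes absent from some but not all libraries were small-subunit genes. Genes without a bacterial counterpart differed from those with a counterpart by 0.15, 0.12 and -0.03 in median log2(CPM + 1) (0.08 ± 0.10) and by -0.089 ± 0.27 in median log2(RPKM + 1), within the spread between libraries on both scales.

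Per length, the highest large-subunit genes were Mrpl42, Mrpl13, Mrpl30 and Mrpl34. Mrpl42 (minus strand of chromosome 10, 95480805 to 95501940 in mm10), a protein without a bacterial counterpart, had 421, 235 and 90 counts, or 83.7, 40.0 and 17.3 RPKM (47.0 ± 33.7, SD, n = 3). Mrpl13 (minus strand of chromosome 15, 55534094 to 55557748) had 330, 858 and 108 counts, or 35.7, 79.6 and 11.3 RPKM (42.2 ± 34.6). Both varied widely, the first highest in replicate 1 and the second in replicate 2.

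Mrpl30 (plus strand of chromosome 1, 37890477 to 37898535), which is related to a bacterial large-subunit protein, had the highest mean CPM of all 77 genes, with 420, 956 and 301 counts or 31.6, 61.8 and 22 RPKM (38.5 ± 20.7). Mrpl34 (plus strand of chromosome 8, 71464959 to 71465747), one of the smallest of the bacterial-type proteins, had 255, 91 and 202 counts or 55.6, 17.0 and 42.7 RPKM (38.4 ± 19.7). These 4 genes could not be put in order, since their means differed by less than the SD of any of them. Mrpl41 followed at 33.6, 28.4 and 21.5 RPKM (27.8 ± 6.07), and its 197, 194 and 130 counts made it the steadiest of the genes named for a high level, with a coefficient of variation (CV) of 21.8%.

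Other large-subunit genes of high level differed more between libraries than Mrpl41. Of these, Mrpl39 and Mrpl37 (CV of 30.7% and 42.0%) varied less than Mrpl42, Mrpl13, Mrpl30 and Mrpl34 (51.1% to 82.0%). Mrpl37, without a bacterial counterpart, was at 37.5, 22 and 17 RPKM (25.5 ± 10.7), and Mrpl39, whose protein is related to threonyl-tRNA synthetase, at 17.3, 31.5 and 21.9 RPKM (23.6 ± 7.24). Mrpl36 was at 50.1, 14 and 12.2 RPKM (25.4 ± 21.3), and Mrpl16 at 60.4, 17.8 and 3.42 RPKM (27.2 ± 29.6). Mrpl52, with the shortest transcript of the 77 (463 bases), was at 10.01, 53.9 and 7.76 RPKM (23.9 ± 26). In Mrpl36, Mrpl16 and Mrpl52, 1 library carried most of the counts, and it was not the same library in each.

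Several genes with long transcripts ranked high by count and lower per length of the longest coding transcript. Whether that transcript was the one present was not tested. Mrpl19 (5000 bases) had 768, 124 and 317 counts and a mean of 52.1 ± 44.9 CPM but 10.4 ± 8.98 RPKM. Mrpl17 (7300 bases), a protein of the bacterial type, had 159, 495 and 92 counts and a mean of 29.7 ± 23.4 CPM but 4.07 ± 3.21 RPKM. Mrpl35 had 500, 308 and 270 counts (12.2 ± 4.87 RPKM) and Mrpl3 had 75, 499 and 215 counts (7.90 ± 5.94 RPKM). These 4 were among the 12 genes of highest mean CPM and outside the 10 highest per length. Mrpl49 had 718, 43 and 26 counts, or 53.9, 2.77 and 1.89 RPKM, so that its mean of 19.5 ± 29.8 RPKM was carried by replicate 1.

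Among small-subunit genes, Mrps21 and Mrps27 were highest per length. Mrps21, a short protein of the bacterial type, had 118, 99 and 58 counts, or 32, 23 and 15.3 RPKM (23.4 ± 8.39, SD, n = 3). Mrps27 (plus strand of chromosome 13, 99344786 to 99415562), a pentatricopeptide repeat protein without a bacterial counterpart, had 293, 561 and 144 counts, or 21, 34.4 and 9.99 RPKM (21.8 ± 12.2). These 2 genes had counts well above 0 in every library, unlike many of their subunit. Mrps22 and Mrps31, chosen after their values were seen, were highest in replicate 3, with 21, 100 and 382 counts and 19, 156 and 342 counts. Mrps7, likewise chosen, had 22, 464 and 8 counts, a 51.3-fold range in CPM between its highest and lowest library. Summed over the 26 genes, the small subunit was at 183, 358 and 254 CPM, lowest in replicate 1, while the 50 large-subunit genes summed to 986, 961 and 589 CPM, lowest in replicate 3.

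**Figure D2:**
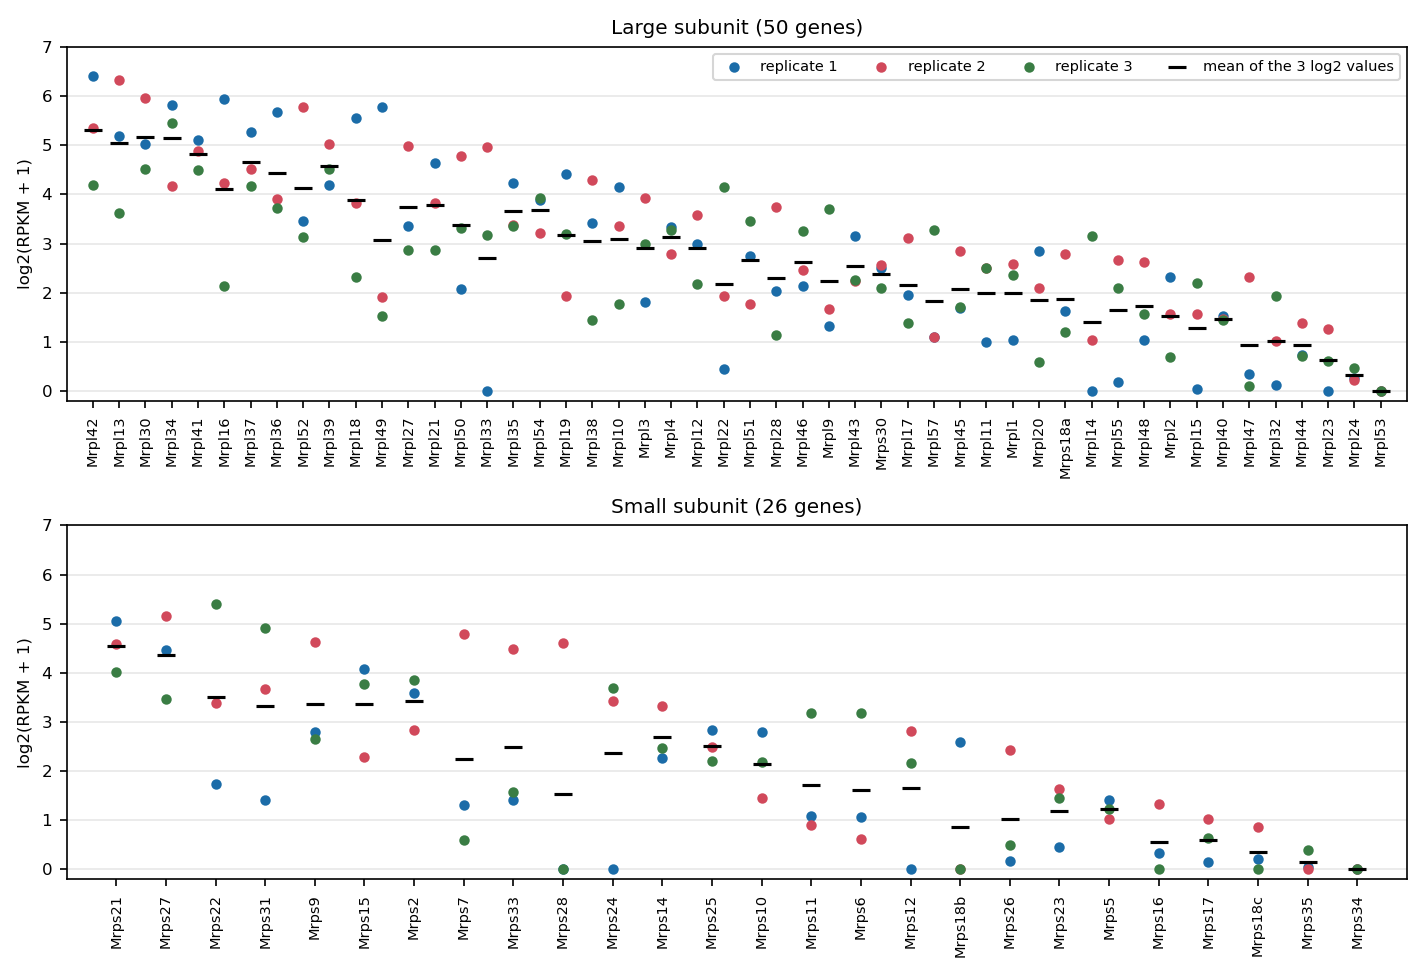
Level of each subunit gene in each library on the log2(RPKM + 1) scale, in order of mean RPKM, with large-subunit genes above and small-subunit genes below (Mrps36 is not drawn). In replicate 1, 22 of 26 small-subunit and 46 of 50 large-subunit genes are above 0.

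A few genes were at 0 in all libraries or were lost in some. Mrpl53 (plus strand of chromosome 6, 83109040 to 83109939) and Mrps34 (plus strand of chromosome 17, 24895116 to 24897502), both without a bacterial counterpart, had 0 counts in all 3 libraries. Of their exonic bases, 100% and 62.7% lie in exons of other annotated genes, Ccdc142os and Gm42688 for Mrpl53 and Mapk8ip3 for Mrps34. Reads that fall in 2 genes may go to no gene in such counting, and the strand setting is not given, so a 0 there does not show that the RNA was absent.

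The other 2 genes with at least 50% of their exonic bases in another gene, named after their values were seen, were Mrps18b (59.1%, Gm16279), with 41, 0 and 0 counts, and Mrps25 (75.6%, Nr2c2), with 280, 246 and 171 counts. Overlap thus did not always go with low counts. The 17 genes with 10 to 50% overlap had a median of mean levels of 7.13 RPKM, close to the 6.17 RPKM of the 56 genes with less. Whether overlap lowered a count was not tested.

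Of the genes at 0 in some libraries, 3 had at least 50 counts in another. Mrps28 had 0, 162 and 0 counts, at least 46.3-fold higher in replicate 2 than the 3-count limit of the libraries at 0 allows. Mrpl33 had 0, 127 and 30 counts (at least 36.3-fold), and Mrps24 had 0, 85 and 92 counts (at least 29.7-fold). All 3 encode proteins of the bacterial type, have transcripts under 1 kb and were at 0 in replicate 1. Such a pattern was seen in 3.90% of the mitochondrial ribosomal protein genes, in none of the 81 cytosolic genes, in 3.46% of all genes and in 4.09% of protein-coding genes, so the share was near that of the background.

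Detection of these genes differed with transcript length. The median longest coding transcript was 1316 bases (463 to 7300) for the mitochondrial genes, 937 bases (383 to 5179) for the cytosolic genes and 2809 bases for protein-coding genes. Of the mitochondrial genes under 1 kb, 15 of 24 (62.5%) had a count in every library, beside 28 of 29 (96.6%) from 1 to 2 kb, 14 of 15 (93.3%) from 2 to 4 kb and 8 of 9 (88.9%) at 4 kb or more. The short genes missing from a library include Mrpl53 and Mrps34, whose zeros may come from overlap. They also include Mrpl33, Mrps18c and Mrpl14, with 37.0%, 21.2% and 16.4% of exonic bases in other genes. The others, Mrpl23, Mrps12, Mrps24 and Mrps28, had no such overlap. Mrps6, with 36.1% overlap, had counts in every library. Whether overlap has a part in the gap by length was not tested. Of the cytosolic genes under 1 kb, 44 of 46 (95.7%) had a count in every library, and of protein-coding genes that short, 18.1%. The gap between the short and the longer mitochondrial genes was widest in replicate 1, where 66.7% of the genes under 1 kb were detected, against 91.7% and 83.3% in replicates 2 and 3. The median mitochondrial gene under 1 kb was at 0.861, 5.28 and 4.94 CPM, and the median cytosolic gene under 1 kb at 20.1, 14.1 and 12.3 CPM.

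**Figure D3:**
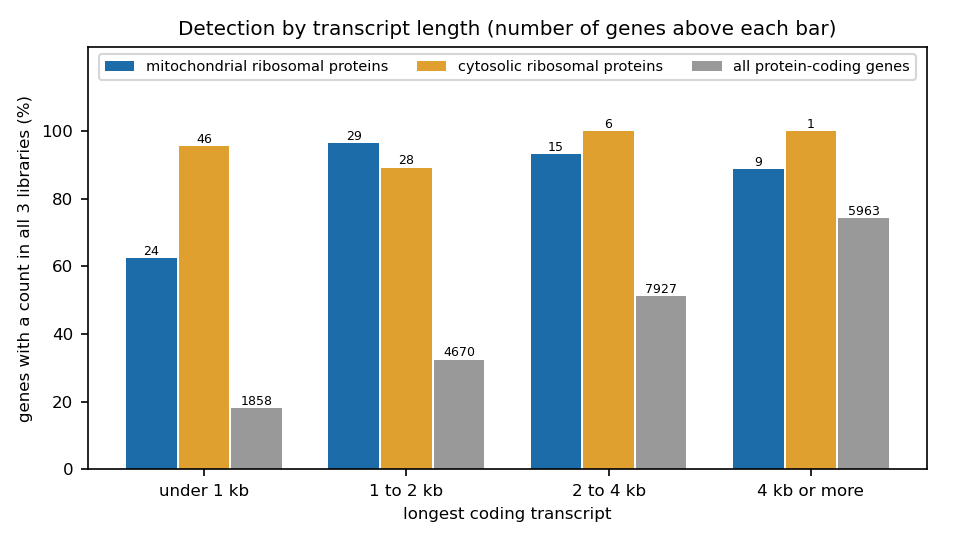
Share of genes with at least 1 count in all 3 libraries, by length of the longest coding transcript, for mitochondrial and cytosolic ribosomal protein genes and all protein-coding genes, with the number of genes above each bar. The mitochondrial share is lowest under 1 kb (62.5%), while the cytosolic share there is 95.7%.

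Across the 77 genes, Spearman's rho between log2(CPM + 1) and transcript length was 0.23, 0.31 and 0.31 in replicates 1, 2 and 3, and Pearson's r with log2 length was 0.17, 0.28 and 0.30. Across the 81 cytosolic genes, rho was 0.23, 0.29 and 0.26, and across 20418 protein-coding genes it was 0.45, 0.45 and 0.46. For RPKM, which divides by the same length, rho across the 77 genes was -0.03, -0.16 and -0.15. These are correlations across genes of the same library, which are not independent replicates and share its depth. The median of mean RPKM was 6.94 under 1 kb, 8.32 from 1 to 2 kb, 4.28 from 2 to 4 kb and 1.87 at 4 kb or more. Per base of the longest annotated coding transcript, the long-transcript genes thus had the lowest levels. These values would be too low for genes whose shorter transcripts were the ones present, which was not tested.

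**Figure D4:**
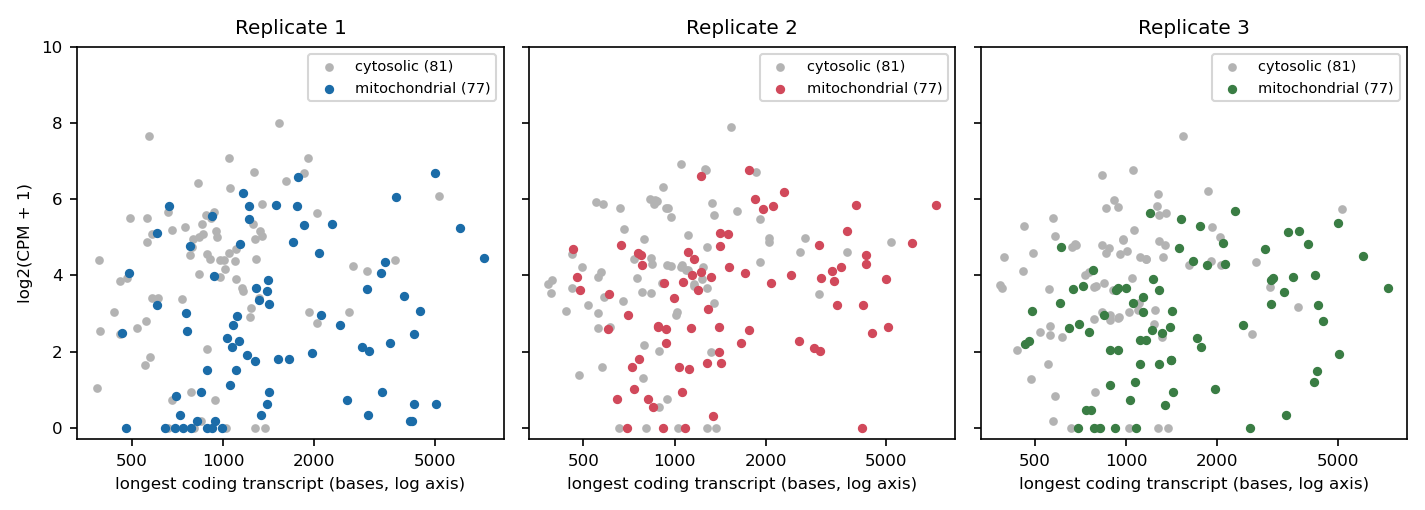
Level in log2(CPM + 1) against the length of the longest coding transcript (log axis) in each library, for 77 mitochondrial (coloured) and 81 cytosolic (grey) ribosomal protein genes. Levels rise weakly with length in each library (Spearman's rho of 0.23, 0.31 and 0.31 for the mitochondrial genes), and all 8 mitochondrial genes at 0 in replicate 1 have transcripts under 1 kb.

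Levels of single genes differed between the libraries far beyond counting error. By a Poisson chi-square test with Benjamini-Hochberg adjustment over all genes tested, 61 of the 63 mitochondrial ribosomal protein genes with enough counts varied between libraries, but so did 96.5% of the 11168 genes tested, so the share is that of the background. The 2 exceptions, named for that reason, were Mrpl40, with 18, 20 and 17 counts, and Mrps5, with 56, 41 and 47 counts. Against the spread of genes of like level, by edgeR's quasi-likelihood dispersion, none of the 63 was called (background 0%). At an unadjusted p under 0.05 it picked 2 of the 63, Mrpl49 and Mrps7, beside 4.27% of all genes tested.

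The median CV between libraries was 82.0% over the 73 mitochondrial genes with at least 10 counts summed, 44.2% over 76 cytosolic genes and 70.2% over all genes with that many counts. Low genes vary more, so the CV was also compared by level. Among genes of 10 to 20 CPM it was 68.7% for the mitochondrial genes and 77% for all genes. From 20 to 50 CPM it was 73.4% (18 genes) beside 57.3%, and at 50 CPM or more 67.9% (4 genes) beside 31.1%. The medians of the better expressed mitochondrial genes thus lay above those of all genes in these classes. Those of the cytosolic genes, at 41.0% and 22.4% in the same classes, lay below. Levels were not alike at 50 CPM or more, where the mitochondrial genes reached 67.6 CPM and all genes 23062.7 CPM. That contrast may therefore partly be one of level, and no test of it was made.

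No library was the highest for most genes of the set. Of the 75 with counts, 23 were highest in replicate 1, 34 in replicate 2 and 18 in replicate 3 (30.7%, 45.3% and 24.0%), while genes with at least 10 counts summed were split 33.8%, 33.1% and 33.1%. Pearson's r of log2(CPM + 1) between libraries, across the 77 genes, was 0.53 to 0.59, beside 0.70 to 0.77 across the cytosolic genes and 0.78 to 0.81 across genes with at least 10 counts summed. Since r depends on the range of levels, the groups are not alike in it. The median absolute log2 difference was 1.17, 0.98 and 1.19 across the 77 genes (replicates 1 and 2, 1 and 3, 2 and 3). It was 0.76, 0.77 and 0.71 across the cytosolic genes, and 0.98, 0.99 and 0.91 across genes with at least 10 counts summed.

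**Figure D5:**
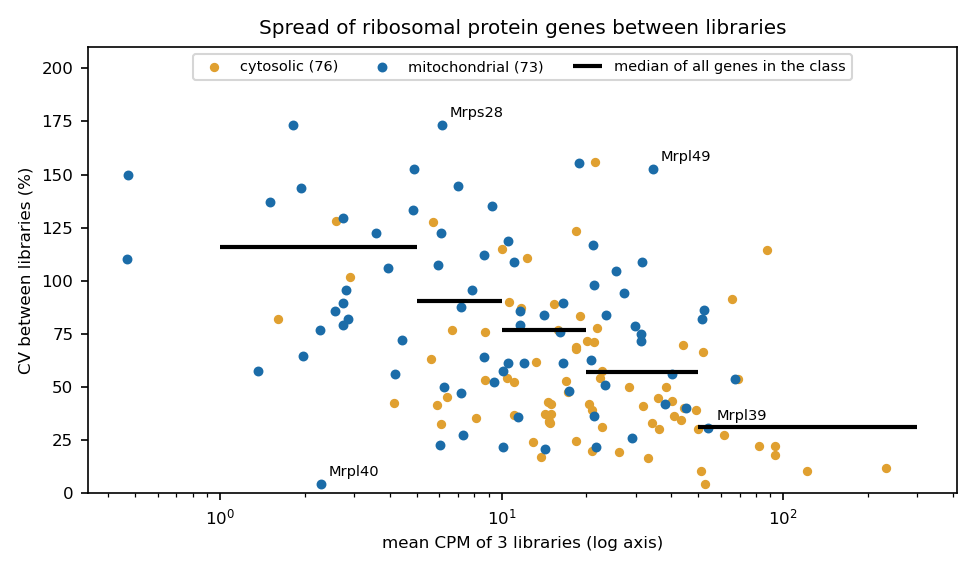
Coefficient of variation between the 3 libraries (%) against mean CPM (log axis) for the mitochondrial and cytosolic ribosomal protein genes with at least 10 counts summed; black lines are the median of all genes in each class of CPM. At 20 CPM or more, 14 of 22 mitochondrial genes and 10 of 37 cytosolic genes lie above the line for their class. The class of 50 CPM or more has no upper bound, so its line includes genes of far higher level.

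The other genes of mitochondrial translation were described for comparison. All 16 translation factor genes had counts, 15 of them in every library, and their median was 3.66, 2.65 and 3.19 on the log2(CPM + 1) scale, higher than the ribosomal protein median in replicates 1 and 3 and lower in replicate 2. The difference was 0.14 ± 1.07 (SD, n = 3), and -0.42 ± 0.77 on the log2(RPKM + 1) scale, within its spread on both. By mean CPM the highest were Lrpprc, which stabilises mitochondrial mRNAs, with 471, 400 and 458 counts (12.6 ± 2.03 RPKM), Oxa1l, which inserts new proteins into the inner membrane, with 459, 405 and 260 counts (18.4 ± 5.40 RPKM), and the elongation factor Gfm1, with 380, 479 and 264 counts (11.3 ± 2.66 RPKM). Their CVs were 16.1%, 29.4% and 23.5%. In the class of Lrpprc (50 CPM or more), the median CV was 67.9% for mitochondrial ribosomal protein genes and 31.1% for all genes. In that of Oxa1l and Gfm1 (20 to 50 CPM), it was 73.4% and 57.3%. The lowest were the release factor Mtrf1, with 4, 1 and 4 counts, and Taco1, a translational activator, with 20, 23 and 17.

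Of 24 assembly factor genes, 21 had counts and 16 had counts in every library, with a median log2(RPKM + 1) of 1.43 ± 0.13, below the 2.36 ± 0.42 of the ribosomal proteins. Their highest by mean CPM were Mettl15, an rRNA methyltransferase, with 8, 276 and 588 counts, Fastkd2 with 99, 760 and 29, and the GTPase Noa1 with 205, 273 and 29. Ftsj2, Mtg2 and Wbscr16 were at 0 throughout. Of 6 further mitoribosome proteins with other symbols, Dap3, a GTP-binding small-subunit protein, was highest by mean CPM with 560, 148 and 232 counts (8.45 ± 6.32 RPKM), followed by Ptcd3 with 80, 163 and 174 and Ict1 with 307, 3 and 54. Per length the highest of the 6 was Aurkaip1, with 102, 233 and 41 counts (13.0 ± 9.21 RPKM). Chchd1 (38, 51 and 0 counts) and Gadd45gip1 (0, 43 and 2 counts) were lowest. Of 13 genes for transcription and RNA processing in mitochondria, 11 had counts in every library, with a median of 1.92 ± 0.10 on the log2(RPKM + 1) scale. Among cytosolic ribosomal protein genes, Rpl4 had 1938, 2104 and 1575 counts (151 ± 18.1 RPKM), above Mrpl42 in each library. Rpl31 and Rpl21 followed it by mean CPM (Rpl21 just above Rpl6), with 1016, 1068 and 849 and with 777, 913 and 577. Rpl10l, Rpl26, Rpl36al, Rpl39l and Rpl3l were at 0 in all libraries. Of the transcripts of Rpl26, Rpl36al and Rpl10l, 65.8%, 27.7% and 26.4% was sequence also found in other annotated genes. Reads that align to several places were not counted, so a 0 for these genes does not show that the RNA was absent. For Rpl39l and Rpl3l that share was 0%. Rpl10a, whose sequence the transgene also carries, had 641, 553 and 774 counts.

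The promoters of the mitochondrial ribosomal protein genes were searched for 3 motifs known from genes of mitochondrial biogenesis, in RefSeq windows (build GRCm38.p6) from 250 bases before to 50 bases after the start, on both strands. A window was found for 68 of the 77 genes and 61 of the cytosolic genes. The ETS-family motif CCGGAAG stood in 24 of 68 windows (35.3%), beside 37.7% of cytosolic ribosomal protein genes, 9.12% of all 27025 windows and 17.8% of windows of protein-coding genes with a count in every library. The YY1 motif AAGATGGCG stood in 8 windows (11.8%), beside 6.56%, 1.49% and 3.51% in the same 3 backgrounds, and the NRF1 motif GCGCATGCG in 7 (10.3%), beside 3.28%, 1.81% and 3.87%. The GC box GGGCGG stood in 34 of the 68 windows of mitochondrial genes (50%), beside 59%, 35.9% and 66.7% in these backgrounds. The TATAAA motif stood in 5.88%, beside 8.2%, 14.2% and 6.11%, and the CCAAT box in 39.7%, beside 29.5%, 37.9% and 38.7%. The 4 stretches of 60 bases below are shown because they hold an ETS match in the 100 bases before the RefSeq start of a gene described above and touch no annotated exon. Each reads 5′ to 3′ along the gene's strand, with the match in capitals.

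Mrpl34 (chr8:71464863-71464922, plus strand): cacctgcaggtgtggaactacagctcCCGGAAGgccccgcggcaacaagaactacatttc

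Mrps22 (chr9:98601680-98601739, minus strand): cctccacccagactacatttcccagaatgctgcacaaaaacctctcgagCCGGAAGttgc

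Mrps27 (chr13:99344712-99344771, plus strand): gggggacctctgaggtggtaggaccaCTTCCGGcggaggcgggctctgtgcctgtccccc

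Mrpl52 (chr14:54426836-54426895, plus strand): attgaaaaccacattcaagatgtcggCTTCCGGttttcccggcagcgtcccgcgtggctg

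The matches end 30, 4, 41 and 40 bases before the start, those of Mrpl34 and Mrps22 on the strand of the gene and those of Mrps27 and Mrpl52 on the opposite strand. Genes with an ETS match were at a median of 2.41, 6.87 and 5.14 RPKM in replicates 1, 2 and 3, and those without at 3.15, 5.06 and 3.86 RPKM, so that the order changed between libraries. The 8 genes with a YY1 match (Mrpl35, Mrpl36, Mrpl37, Mrpl42, Mrps11, Mrps18a, Mrps24 and Mrps27) were at a median of 19.4, 11.9 and 10.9 RPKM, and the 60 without at 2.41, 4.93 and 3.59 RPKM, higher with the match in each library. Among the 8, mean levels ran from 3.10 to 47.0 RPKM, so a match did not mark a high gene by itself. Genes with an NRF1 match were at 2.88, 2.83 and 2.81 RPKM, and those without at 2.50, 5.91 and 4.11 RPKM.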

How the data were processed

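RNA from 3 anti-EGFP immunopurifications of deep cerebellar nuclei was sequenced. The authors deposited raw counts of reads per gene symbol, 1 table per library. STAR 2.0.0e, HTSeq and mm10 are named, per the submitters' processing notes, with annotation, strand and counting mode not given in the sources used here. Summary rows, with 50.2%, 44.1% and 44.7% of counted reads in no feature, were left out of library sizes, and 5263183, 4434540 and 3710157 multiply aligned reads were not counted to genes. Depth was 7622010 to 8842058 gene counts. Reads without molecular identifiers are not independent molecules, so limits from a count of 0 cover counting error only.

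CPM were computed with TMM sizes (edgeR 4.0.16, R 4.3.3), with a pseudocount of 1 on the log2 scale, which understates folds of low genes. Lengths, positions and overlaps came from GENCODE release M21, matched by symbol for all 77 genes. Of 98 symbols that start like cytosolic ribosomal proteins, 17 kinases, pseudogenes and the like were dropped. Spread between libraries, for genes reaching 10 counts in 2 of them, was tested with a Poisson chi-square and with edgeR's quasi-likelihood dispersion. The latter came from glmQLFit with an intercept alone. Both had Benjamini-Hochberg adjustment over all these genes. On simulated data the Poisson test was checked with raised and unchanged genes, and the quasi-likelihood dispersion with unchanged genes alone. With 1 group, no comparison between groups was made. Alternatives were DESeq2 1.42.0 sizes, plain totals, a pseudocount of 0.1, RPKM, filters, means over genes, other lengths and leaving out each library.

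The members and lists were chosen with earlier results of these data known. Named genes are the 12 of highest mean CPM, the next 5 by mean RPKM, those at 0 in all libraries, those at 0 in a library with at least 50 counts in another, the 3 of lowest CV at 50 CPM or more, and the 3 highest and 2 lowest by mean CPM among the cytosolic, translation factor, assembly factor and other mitoribosome genes. Others are said to be chosen after their values were seen, or are named to complete a group.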

Additional observations from a re-analysis of the deposited data

How the results depend on the processing

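Alternatives to the main values other than leaving out a library numbered 45. Of these, 39 stayed within the spread between libraries (for counts of genes, within 1.5 times), 6 did not, and none reversed a called direction. The 44 other scalings of the 22 named genes stayed within it too, but could hardly have left it. TMM factors were 0.982, 0.996 and 1.02, and DESeq2 sizes lay close to the TMM sizes. Other sizes among the 45 had as little room to move a value. A pseudocount cannot change the ranks behind Spearman's rho. A mean of 2 of 3 libraries cannot leave the spread between libraries, so leaving out a library was read by size. The mean CPM of 12 of the 22 genes moved by over 1.5 times, 8 of them without replicate 1 and 6 without replicate 2. Among the 8 are Mrps24, Mrps28 and Mrpl33, at 0 in replicate 1. Leaving out a 0 raises a mean by about 1.5 times by arithmetic. Mrpl53 and Mrps34, at 0 throughout, could not move under any setting. Mrpl49 went from 34.4 to 4.15 CPM without replicate 1, and without replicate 2 Mrps28 went from 6.13 to 0 and Mrpl52 from 11.1 to 4.12 CPM. RPKM in place of CPM moved the median level from 3.03 to 2.36, the difference of large minus small subunit from 0.94 to 0.55, and that of genes without minus with a bacterial counterpart from 0.08 to -0.089. Spearman's rho of level with length, 0.29 over the libraries, was 0.22 with the union of exons and 0.14 with the coding sequence, a length chosen after seeing the data. The 61 of 63 genes beyond Poisson error became 47 of 59, 36 of 48 and 46 of 52 without replicates 1, 2 and 3. Over all genes tested, 10773 of 11168 became 7977 of 9912, 7902 of 9658 and 7877 of 9582, so the background fell too. The quasi-likelihood dispersion of edgeR, counted among the 6, asks for spread above that of genes of like level. It called 0 of the 63 genes and 0 of all 11168, so it says nothing on counting error. The translation factor difference ran from -0.38 to 0.70 with each library left out. No paired analysis was possible because all 3 libraries belong to 1 group. Depth limits what can be said of the 12 genes with a 0 in a library, and no test of a level was made.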
